A study of Mus musculus with 6 samples.

Results

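The basic helix-loop-helix (bHLH) transcription factors Nhlh1, Nhlh2, Neurod1, Neurod2, Neurod6, Bhlhe22, Bhlhe40, Tcf4 and Tcf12 were followed here in the adult mouse midbrain. They are 9 of the 32531 gene entries of each count file, taken by symbol as proneural and neuronal bHLH factors that lack a PAS domain, and all 9 were in the files and passed the filter on low counts. The libraries came from untreated control mice of the line Lhx5-TRAP DT154, which carries the transgene Lhx5-EGFP/Rpl10a. In such a line, a ribosomal protein fused to EGFP is made under control of Lhx5 sequences, so that antibodies to EGFP pull down polysomes of the cells that carry the tag. Immunopurified RNA (IP) was sequenced in 3 libraries, and 3 libraries titled Input served as the comparison. Another label gives the type of the Input libraries as Unbound, so they may be whole homogenate or what the beads left behind. Every library, Input included, is from the same transgenic line and tissue. The labels used here name no sex, exact age or pooling of animals, and do not say whether replicates were separate animals. The p-values therefore cover only the variation among these libraries, and that may be technical.

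bHLH proteins bind the E-box, a short DNA word that reads CANNTG, and they bind it as pairs. Tcf4 and Tcf12 are E proteins, which most cells make and which pair with tissue-restricted partners such as the Neurod and Nhlh proteins. Id proteins hold E proteins in pairs that cannot bind DNA, and Hes and Hey proteins repress the genes that proneural bHLH factors switch on. Most of these genes are best known from the embryo, and several stay on in mature neurons. Neurod6 and Neurod2 mark excitatory neurons of the forebrain, Neurod6 also a subset of ventral midbrain dopamine neurons, Neurod1 cerebellar granule cells, and Nhlh2 neurons of the hypothalamus.

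Each library held between 38058239 and 45841499 counts in genes. Lhx5, the gene that drives the tag, had 46.8, 56.0 and 49.1 CPM in the IP libraries and 3.92, 3.81 and 2.20 in the Input libraries. CPM are counts scaled to a common library size after TMM correction, which allows for differences in composition. Of 17197 genes tested with edgeR's quasi-likelihood test, 53.9% differed between IP and Input at an adjusted p under 0.05, with 26% of all tested genes higher and 27.9% lower in IP. With upper-quartile scaling the share of calls that were upward was 38.1% in place of 48.2%, and the median log2 fold change of all genes was -0.17 in place of -0.01. A set of 6 pan-neuronal genes summed to 17590 to 22290 CPM in IP and 8029 to 11450 in Input, and 5 of the 6 rose. Single libraries stood apart in genes of a brain region: IP replicate 2 was high in Purkinje cell genes (1265 CPM summed over 6 genes, against 185 and 252 in the other IP libraries), and Input replicate 3 was high in striatal genes (755 CPM over 6 genes, against 144 and 66.6).

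Among the bHLH factors, Nhlh2 was higher in IP and Neurod2, Neurod6, Tcf4 and Tcf12 were lower. Nhlh1, Neurod1, Bhlhe22 and Bhlhe40 did not pass the test. The 5 called of 9 stood beside 53.9% of all tested genes called, the 1 higher beside 26% and the 4 lower beside 27.9%, so the share called was close to that of all genes. Their median log2 fold change was -0.66, against -0.01 over all tested genes. By the test against a 2-fold threshold, Nhlh2 rose, as did 2.25% of all tested genes, and Neurod6, Tcf4 and Tcf12 fell, as did 12.9%, which makes 4 of 9 beside 15.1%. The IP and Input libraries did not overlap for 6 of the 9, beside 63.5% of all tested genes. Of these, Nhlh1 and Nhlh2 were higher in IP (30.7% of all tested genes) and 4 were lower (32.8%). Without IP replicate 2 and Input replicate 3 together, and without the pair numbered 2, 1 was again higher and 4 lower. In bulk RNA, fewer cells of a type and less RNA per cell cannot be told apart. Since IP is RNA pulled down with polysomes, a smaller share of a gene's RNA on polysomes cannot be told apart from these either.

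**Figure D1:**
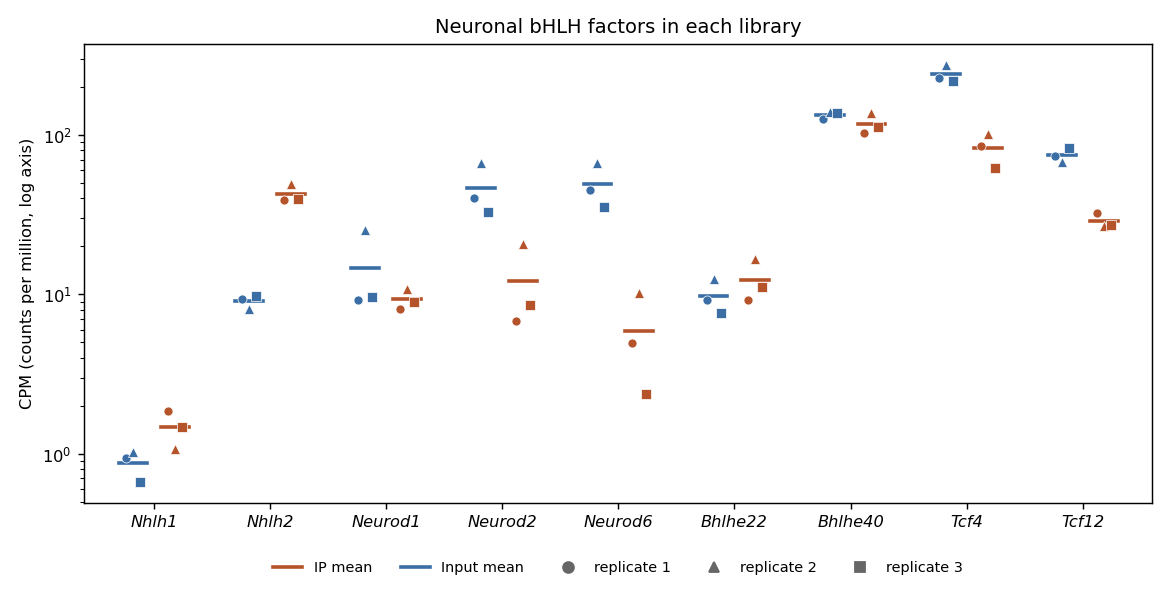
Level of the 9 bHLH factors in each library in CPM on a log axis; points are libraries, with a shape for each replicate number, and bars are group means (n = 3 each). The 3 IP libraries lie between 39.0 and 49.1 CPM for Nhlh2, above all Input libraries, and below all Input libraries for Neurod2, Neurod6, Tcf4 and Tcf12.

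**Figure D2:**
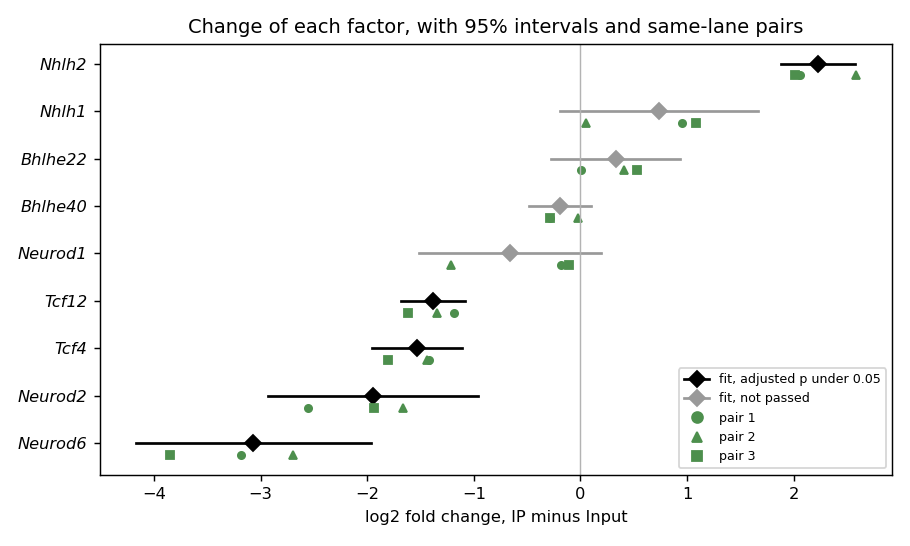
Fitted log2 fold change of each factor (diamond) with its 95% interval, and the difference within each same-numbered pair of libraries (small symbols, IP minus Input log2 CPM). All 3 pairs lie above 0 for Nhlh2 and below 0 for Neurod2, Neurod6, Tcf4 and Tcf12, and the pair numbered 2 lies apart from the other pairs for Neurod1.

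Nhlh1 and Nhlh2 (also called Hen1 and Hen2) are small, closely related neuronal bHLH factors. Nhlh2 lies on chromosome 3 from 102010076 to 102015492 on the plus strand and Nhlh1 on chromosome 1 from 172052292 to 172057573 on the minus strand (GENCODE M21, GRCm38, the assembly called mm10). The stretches of DNA before their starts are given here with those of Neurod2 and Neurod6, because Nhlh2 rose and Neurod2 and Neurod6 fell, and Nhlh1 is the nearest relative of Nhlh2. The sequences are RefSeq promoter windows (GRCm38.p6), 5′ to 3′ on the gene's strand and trimmed to bases before the start in both RefSeq and GENCODE, with each E-box CANNTG in capitals. They cover chr3:102009895-102010075 (plus strand), chr1:172057597-172057846 (minus), chr11:98329649-98329895 (minus) and chr6:55681264-55681513 (minus).
Nhlh2: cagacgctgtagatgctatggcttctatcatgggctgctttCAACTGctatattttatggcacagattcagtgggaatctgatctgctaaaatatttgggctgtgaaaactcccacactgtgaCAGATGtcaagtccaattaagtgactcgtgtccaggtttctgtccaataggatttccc
Nhlh1: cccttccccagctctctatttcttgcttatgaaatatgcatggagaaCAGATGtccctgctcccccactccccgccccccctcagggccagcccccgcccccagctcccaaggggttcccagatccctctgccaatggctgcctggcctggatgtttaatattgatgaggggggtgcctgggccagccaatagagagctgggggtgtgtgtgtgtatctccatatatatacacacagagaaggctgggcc
Neurod2: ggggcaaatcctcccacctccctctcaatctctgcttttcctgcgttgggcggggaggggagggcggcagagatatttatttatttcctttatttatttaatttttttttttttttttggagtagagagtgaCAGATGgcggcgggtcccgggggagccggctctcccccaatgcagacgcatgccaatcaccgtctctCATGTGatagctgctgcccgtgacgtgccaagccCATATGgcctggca
Neurod6: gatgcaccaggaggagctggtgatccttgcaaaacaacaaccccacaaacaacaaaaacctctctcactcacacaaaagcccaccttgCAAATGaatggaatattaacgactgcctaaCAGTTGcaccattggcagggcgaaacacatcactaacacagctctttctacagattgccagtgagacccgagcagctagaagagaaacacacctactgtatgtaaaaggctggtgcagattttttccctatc
In the 250 bases before the RefSeq start, Nhlh2 had 2 E-boxes, Nhlh1 had 1, Neurod2 had 3 and Neurod6 had 2, while 66.2% of 32536 such windows of all genes held at least 1 and 12.2% held 3 or more. The word CAGATG was present once in Nhlh2, Nhlh1 and Neurod2, starting 127, 203 and 118 bases before the start. It or CATCTG, the same word read on the other strand, was in 14.4% of all windows. CANNTG reads the same on both strands, and CAGATG is one of its forms. Promoter windows were matched for 6 of the 9 factors.

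Nhlh2 stood at 39.0, 49.1 and 39.6 CPM in IP replicates 1, 2 and 3 and at 9.30, 8.12 and 9.80 CPM in Input. Every IP library was above every Input library, and the 3 Input libraries lay close together. The fitted rise was 4.69-fold (log2 fold change 2.23, SE 0.15, adjusted p 2.47e-05, higher in 3 of 3 pairs), with means of 42.6 ± 5.64 CPM in IP against 9.07 ± 0.865 (SD, n = 3 each). It was the largest change upward of the 9 factors and ranked 102 among the 17197 genes tested. Within the pairs numbered 1, 2 and 3, which carry the same lane code in their labels, the log2 differences were 2.06, 2.59 and 2.01.

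Nhlh1 was the least abundant of the factors, with 78, 44 and 63 counts in IP and 39, 45 and 27 in Input, or 1.86, 1.07 and 1.47 against 0.938, 1.03 and 0.666 CPM. Its IP libraries were all above its Input libraries, but IP replicate 2 was above the highest Input library by a small margin. The log2 fold change was 0.74 (SE 0.41, 95% interval -0.19 to 1.67, adjusted p 0.155), which did not pass and does not show that the level was alike. Within a library, Nhlh2 had 20.9, 45.7 and 27 counts for each count of Nhlh1 in IP and 9.92, 7.87 and 14.7 in Input. This ratio needs no scaling between libraries, and its groups did not overlap (exact permutation test, two-sided, p = 0.1, the smallest that 3 against 3 allow; 0.125 adjusted over 5 such ratios). Mice that lack Nhlh2 become obese, and the prohormone convertase gene Pcsk1 and the melanocortin receptor gene Mc4r are reported targets. Neither passed: Pcsk1 stood at 0.39 (log2, SE 0.36, adjusted p 0.379) and Mc4r at -0.25 (SE 0.35, adjusted p 0.561).

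The Neurod genes encode factors that drive neuronal differentiation and keep excitatory neurons in their mature state. Neurod6 (chromosome 6, 55677822 to 55681263) and Neurod2 (chromosome 11, 98325415 to 98329648) were lower in IP, and Neurod1 (chromosome 2, 79452521 to 79456751) did not pass. Neurod6 had 4.92, 10.2 and 2.38 CPM in IP and 45.1, 66.8 and 35.1 in Input. The highest IP library was well below the lowest Input library. Neurod6 fell by 3.07 on the log2 scale (SE 0.48, adjusted p 0.00104, lower in 3 of 3 pairs), which is 8.39-fold and the largest fall of the 9. Without IP replicate 2 the log2 fold change was -3.77.

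Neurod2 had 6.81, 20.8 and 8.56 CPM in IP and 40.2, 66.3 and 32.9 in Input. IP replicate 2 was well above the other IP libraries and still below every Input library. The log2 fold change was -1.95 (SE 0.43, adjusted p 0.00524, lower in 3 of 3 pairs), or 3.85-fold lower, and the test for a change over 2-fold was not passed (adjusted p 0.0563). Without IP replicate 2 it stood at -2.63, and with that library and Input replicate 3 left out at -2.84.

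Neurod1 had 8.10, 10.8 and 8.96 CPM in IP and 9.21, 25.2 and 9.63 in Input. The groups overlapped, since 1 library, Input replicate 2, was high and the other Input libraries were at the level of IP. The log2 fold change was -0.66 (SE 0.38, 95% interval -1.52 to 0.20, adjusted p 0.168). It was -0.01 (adjusted p 0.963) without Input replicate 2, and the differences within pairs 1, 2 and 3 were -0.18, -1.22 and -0.10. Its exons share 201 bases with Cerkl on the same strand and 154 with a noncoding gene on the other, and reads there cannot be told apart or were left out as ambiguous.

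The proportions of the 3 Neurod genes within a library were compared by counts. Neurod6 had 0.608, 0.946 and 0.266 counts for each count of Neurod1 in IP and 4.90, 2.65 and 3.64 in Input. For each count of Neurod2 it had 0.723, 0.492 and 0.278 in IP and 1.12, 1.01 and 1.07 in Input. Neurod2 had 0.841, 1.92 and 0.956 counts for each count of Neurod1 in IP and 4.37, 2.63 and 3.42 in Input. None of these 3 ratios overlapped between the groups (exact permutation test, two-sided, p = 0.1 each, the smallest possible, so that no ratio could pass 0.05; 0.125 adjusted over 5 ratios).

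Markers of regions where Neurod genes are strongly expressed were read beside them. Of 8 markers of forebrain excitatory neurons 6 were lower in IP and 2 did not pass (4 lower without Input replicate 2), and their sum was 226 to 400 CPM in IP and 849 to 1232 in Input. Slc17a7, the vesicular glutamate transporter 1 gene, had 11.9, 11.8 and 0.583 CPM in IP and 87.0, 122 and 46.5 in Input. Of the Input libraries it was highest in replicate 2 and lowest in replicate 3, the same order as Neurod2 and Neurod6. The list as a whole did not keep this order. Its sum was 849, 1232 and 1077 CPM in Input replicates 1, 2 and 3, lowest in replicate 1. Neurod2 and Neurod6 were highest of the IP libraries in IP replicate 2, where the forebrain list summed to 400 CPM and was also highest, but Slc17a7 was not. Cbln3, a cerebellar granule cell gene, had 19.2 CPM in Input replicate 2 and 0.769 and 0.790 in Input replicates 1 and 3, and 2.89, 4.57 and 2.92 in IP. Gabra6, the granule cell subunit of the GABA-A receptor, was too low to be tested, with 287 counts in Input replicate 2, 39 in IP replicate 2 and 9 or fewer in the other libraries. The granule cell list as a whole summed to 141 to 165 CPM in IP and 203 to 254 in Input, with 1 of 5 tested higher and 2 lower. Among the Input libraries this sum was highest in replicate 3, not in replicate 2. Zic1 made up 80.1, 49.2 and 133 CPM of it in Input replicates 1, 2 and 3. Of the Input libraries, Zic1 and, by a small margin, Calb2 were highest in replicate 3. Cbln3, Gabra6, Etv1 and Fat2 were highest in replicate 2, with Fat2 at 3.27, 6.26 and 0 CPM in Input. All 5 dopamine neuron markers were lower in IP, but only 3 without IP replicate 3 or without the pair numbered 2. Their sum was 50.7 to 68.4 CPM in IP against 151 to 429, with 429, 359 and 151 CPM in Input replicates 1, 2 and 3. They were thus highest in Input replicate 1, while Neurod6 was highest in Input replicate 2. No marker of the 3 lists was at 0 in all libraries of a group. The part of these cell types in the levels of the Neurod genes was not tested.

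**Figure D3:**
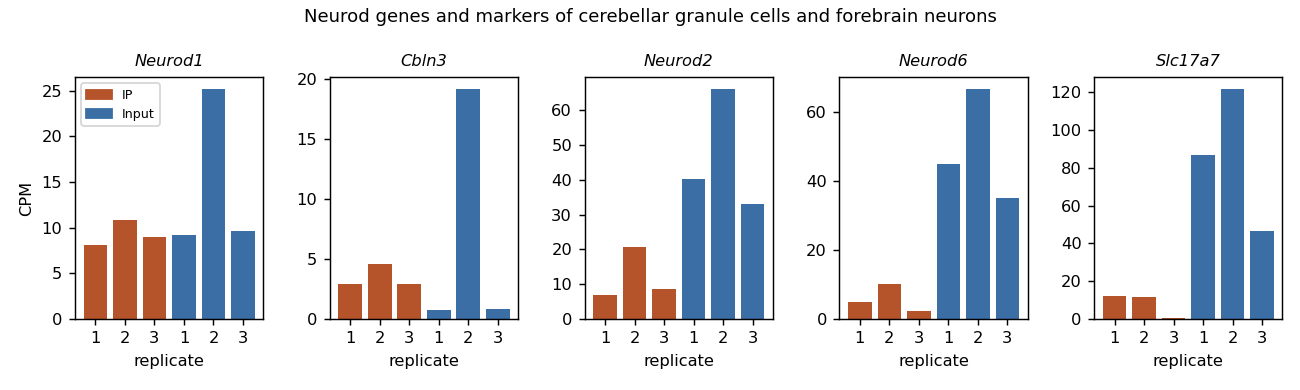
CPM of the 3 Neurod genes beside Cbln3 and Slc17a7 in each library (bars, 1 per library, each panel with its own axis from 0). Cbln3 is from the cerebellar granule cell list and Slc17a7 from the forebrain excitatory neuron list. Neither list implies that a gene is confined to those cells. Neurod1 and Cbln3 are both highest in Input replicate 2, at 25.2 and 19.2 CPM, and Neurod2, Neurod6 and Slc17a7 are higher in every Input library than in any IP library.

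Bhlhe22 and Bhlhe40 act mainly as repressors. Bhlhe22, on chromosome 3 from 18054174 to 18057517, is needed for the identity of neurons in cortex, retina and spinal cord. Its level was 9.22, 16.6 and 11.1 CPM in IP and 9.21, 12.5 and 7.68 in Input. The groups overlapped, and the highest library of each was replicate 2. The log2 fold change was 0.33 (SE 0.26, 95% interval -0.27 to 0.94, adjusted p 0.318), and it was -0.14 without IP replicate 2 and Input replicate 3, so that no direction can be given.

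Bhlhe40, on chromosome 6 from 108660629 to 108666925, is a repressor that answers many stimuli and feeds back on the circadian clock. It had 103, 137 and 112 CPM in IP and 126, 139 and 137 in Input. The 6 libraries lay within a narrow range and overlapped. Its log2 fold change was -0.19 (SE 0.13, 95% interval -0.48 to 0.10, adjusted p 0.23). Without IP replicate 2, Bhlhe40 stood at -0.35 and passed (adjusted p 0.0307), which brought the count of lower factors to 5. Exons of an antisense gene cover 2.51% of its exon bases. Bhlhe41, its closest relative, was named after its values were seen and had 120, 132 and 129 CPM in IP and 121, 116 and 119 in Input. Its log2 fold change was 0.09 (SE 0.10, adjusted p 0.448).

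The E protein genes Tcf4, Tcf12 and Tcf3 were lower in IP. Tcf4 here is the E protein gene on chromosome 18 (69343356 to 69689079), whose human counterpart is mutated in Pitt-Hopkins syndrome, and not the Wnt effector Tcf7l2 that shares the name in older use. Tcf4 had 84.7, 101 and 62.2 CPM in IP and 228, 275 and 217 in Input. All IP libraries were below all Input libraries. The log2 fold change was -1.54 (SE 0.19, adjusted p 0.000298, lower in 3 of 3 pairs), or 2.90-fold lower, and pairs 1, 2 and 3 gave -1.43, -1.44 and -1.80.

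Tcf12, on chromosome 9 from 71842688 to 72111871, had 32.5, 26.7 and 27.1 CPM in IP and 73.9, 67.9 and 83.1 in Input. The groups were far apart beside the spread within each. The log2 fold change was -1.38 (SE 0.13, adjusted p 0.000105, lower in 3 of 3 pairs), or 2.60-fold lower, and the pairs gave -1.18, -1.34 and -1.61. The ratio of Tcf4 to Tcf12 counts was 2.61, 3.78 and 2.29 in IP and 3.08, 4.05 and 2.61 in Input and overlapped between the groups (exact permutation test, two-sided, p = 0.5; 0.5 adjusted over 5 ratios). Tcf3, the other E protein gene, had 6.52, 8.03 and 7.0 CPM in IP and 11.2, 11.7 and 14.1 in Input, and its log2 fold change was -0.78 (SE 0.17, adjusted p 0.00562).

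To order the factors by level, CPM were divided by the length of all exons of a gene in GENCODE. In IP, Bhlhe40 led at 24.9 ± 3.67 CPM per kb and Nhlh2 was next at 7.86 ± 1.04 (SD, n = 3 each). With this length, both stood apart from their neighbours in that order. Neurod2, Bhlhe22, Neurod1, Tcf4, Neurod6 and Tcf12 followed between 3.84 and 1.85 CPM per kb, each overlapping its neighbour, and Nhlh1 was last at 0.596 ± 0.16. In Input, Bhlhe40 again led at 28.5 ± 1.46 CPM per kb, overlapping Neurod6 at 22.8 ± 7.55, which in turn overlapped Neurod2 at 14.8 ± 5.58. Tcf4, Neurod1 and Tcf12 came next at 8.76, 5.38 and 4.83, and Bhlhe22, Nhlh2 and Nhlh1 closed the order at 2.93, 1.68 and 0.357, each apart from its neighbour. Nhlh2 was thus in place 2 of 9 in IP and 8 of 9 in Input. Divided by the longest coding transcript instead, Bhlhe40, Nhlh2 and Nhlh1 kept these places in both groups, while Tcf4 moved from 6 to 3 in IP and from 4 to 2 in Input. With that length Nhlh2 no longer stood apart in IP, since its libraries at 9.89 to 12.4 CPM per kb overlapped those of Tcf4 at 7.25 to 11.8, and in Input it overlapped Bhlhe22. The annotated exons of Tcf4 add up to 27382 bases and its longest coding transcript has 8577.

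The libraries numbered 2 held the highest level of most factors. In IP, 7 of 9 were highest in replicate 2, all but Nhlh1 and Tcf12, while 25.3% of all tested genes were highest there. In Input, 7 of 9 were highest in replicate 2, all but Nhlh2 and Tcf12, while 28.9% of all tested genes were. Summed over its genes, the forebrain excitatory neuron list was highest in replicate 2 of both groups. It stood at 292, 400 and 226 CPM in IP replicates 1, 2 and 3 and at 849, 1232 and 1077 in Input. IP replicate 2 had the highest sum of Purkinje cell genes, and Cbln3, Gabra6 and Fat2 were highest in Input replicate 2. The granule cell list as a whole was not, at 203, 206 and 254 CPM in Input replicates 1, 2 and 3. Zic1 made up 80.1, 49.2 and 133 CPM of these sums. The part of these cells in the factors' levels was not tested. With both libraries left out, Nhlh2 stood at 2.07, Neurod2 at -2.22, Neurod6 at -3.42, Tcf4 at -1.56 and Tcf12 at -1.36, all with an adjusted p of 0.00576 or less.

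Of 24 other proneural and neuronal bHLH genes, 13 were abundant enough to be tested, and 2 rose, 7 fell and 4 did not pass, beside 26% higher and 27.9% lower of all tested genes. Their median log2 fold change was -0.78, against -0.01 over all tested genes. Neurog2, a proneural factor of glutamatergic progenitors, had 195, 136 and 222 counts in IP and 6, 33 and 18 in Input. The IP libraries were all higher, and the log2 fold change was 3.28 (SE 0.53, adjusted p 0.0012) and 3.89 without Input replicate 2. Olig3, a factor of dorsal hindbrain and thalamic progenitors, had 33, 33 and 58 counts in IP and 1, 0 and 0 in Input, a ratio of 124 with a 95% counting interval of 21.9 to 4939 (adjusted p of the fit 0.000568).

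The falls in this list included glial and blood cell factors. Olig1 and Olig2, the factors of the oligodendrocyte lineage, were lower by a wide margin, with log2 fold changes of -3.32 for Olig1 (SE 0.16) and -2.85 for Olig2 (SE 0.18). Beside them, 6 of 6 oligodendrocyte and 4 of 4 precursor markers were lower, summing to 290 to 431 against 3649 to 4333 CPM and to 5.93 to 9.03 against 80.7 to 82.1. Atoh8, made in vessels and other tissues, had 0, 6 and 1 counts in IP and 41, 70 and 50 in Input, and was called lower (adjusted p 0.0031). Its fitted log2 fold change was -4.44 and -6.47 without IP replicate 2. Lyl1, a blood and endothelial factor, had 1 count over all IP libraries and 59 over Input, a ratio of Input to IP of 59 with a counting interval of 10.2 to 2368. Its relative Tal1, also a factor of midbrain GABA neurons, had 1.77, 3.0 and 1.0 CPM in IP and 16.8, 14.9 and 1.26 in Input. Tal1 was called lower (log2 fold change -2.51, SE 0.81, adjusted p 0.028), a call that was lost without any 1 of IP replicates 1, 2 and 3 or Input replicates 1 and 2 (adjusted p from 0.0534 to 0.119). It was also lost with no count filter (0.111) and by limma-voom (0.214), and kept without Input replicate 3. Atoh1, Ptf1a, Neurog3 and Ascl5 had 0 counts in all libraries, where 3 counts would be 0.0654 to 0.0788 CPM (counting error only).

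**Figure D4:**
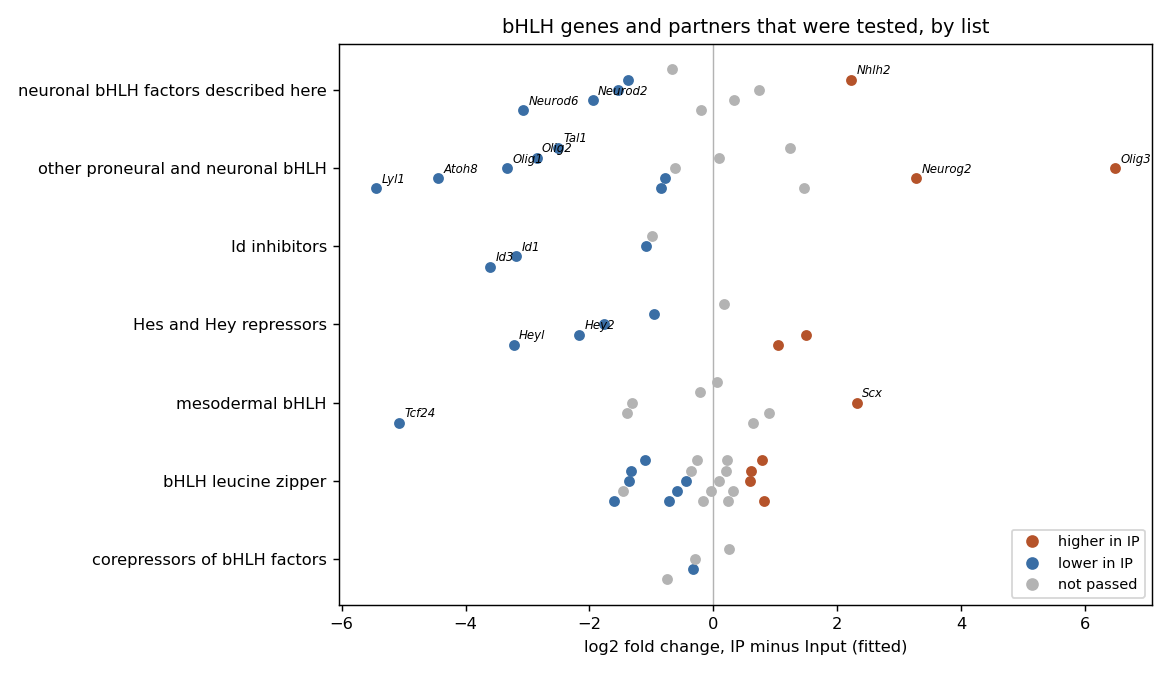
Fitted log2 fold change of each tested gene of the bHLH lists and of their corepressors, 1 point a gene, coloured by the call at an adjusted p under 0.05. Nhlh2, Neurog2, Olig3 and Scx lie furthest to the right, and Lyl1, Tcf24 and Atoh8, with 7 counts or fewer over the IP libraries, furthest to the left; fitted values of genes at 0 in a library depend on the prior count.

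Of the 4 Id genes, inhibitors of E proteins, 3 were lower in IP and 1 did not pass, beside 27.9% of all tested genes lower. On the log2 scale Id3 stood at -3.60 (SE 0.43, adjusted p 0.000299), Id1 at -3.18 (SE 0.38, adjusted p 0.000284) and Id4 at -1.09 (SE 0.31, adjusted p 0.0171). Id2 had 13.1, 33.2 and 11.1 CPM in IP and 41.2, 41.6 and 31.2 in Input and did not pass (-0.99, SE 0.38, adjusted p 0.0531). Without IP replicate 2, where Id2 was highest of the IP libraries, 3 Id genes were again lower, but Id2 passed and Id4 did not (adjusted p of Id4 0.0649). Astrocyte and endothelial markers were lower beside them, 6 of 6 in each list, at 111 to 166 against 1024 to 1368 CPM and at 1.73 to 2.32 against 11.2 to 16.4. The part of these cells in the levels of the Id genes was not tested.

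Of 7 tested Hes and Hey genes, the repressors of the Notch pathway, 2 rose, 4 fell and 1 did not pass, beside the same 26% and 27.9%, and their median log2 fold change was -0.96. Hes6, which opposes Hes1 and favours neuronal differentiation, had 9.10, 9.23 and 11.2 CPM in IP and 5.02, 4.56 and 4.69 in Input. It rose by 1.05 on the log2 scale (SE 0.18, adjusted p 0.0016), with no overlap. Hes7 rose by 1.5 (SE 0.36, adjusted p 0.00729), did not pass without IP replicate 2 and Input replicate 3 (adjusted p 0.0514) or without the pair numbered 2 (adjusted p 0.0667), and shares 12.9% of its exon bases with a gene on the other strand. Heyl, Hey2 and Hes5 fell by 3.22 (SE 0.38), 2.16 (SE 0.46) and 1.76 (SE 0.33). Hes1 stood at -0.96 (SE 0.30, adjusted p 0.0236). Its call was lost without IP replicate 1, Input replicate 1 or Input replicate 2 (adjusted p 0.0736, 0.0579 and 0.109). Without the pair numbered 2 it was lost as well (adjusted p 0.12). Hes3, named after its values were seen, was not tested and had 259 counts in IP replicate 2, 52 in Input replicate 2 and 9 or fewer elsewhere.

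Of 8 tested bHLH genes best known from mesoderm 2 were called, beside 53.9% of all tested genes. Scx, a tendon factor, rose by 2.31 (SE 0.28, adjusted p 0.000299), with 5.26, 5.93 and 7.02 CPM in IP and 0.986, 1.15 and 1.53 in Input. Tcf24 fell, with 4 counts over all IP libraries and 43, 69 and 36 in the Input libraries (adjusted p 0.00259), and 6 did not pass. A leucine zipper follows the bHLH in 21 tested genes, of which 4 rose, 7 fell and 10 did not pass, or 11 of 21 called beside 53.9% of all tested genes, with a median log2 fold change of -0.17. The Myc network genes Mga and Mxd1 fell by 0.72 (SE 0.12) and 0.44 (SE 0.15), and Mnt rose by 0.61 (SE 0.13). Mxd1 lost its call when replicate 1 or 2 of IP or replicate 1 or 3 of Input was left out (adjusted p 0.0515 to 0.136). Of 4 corepressors that bind bHLH factors 1 was called, beside 53.9% of all tested genes. Runx1t1 was called lower (-0.33, SE 0.09, adjusted p 0.0166) and the others did not pass. Runx1t1 lost its call without IP replicate 1, Input replicate 1 or Input replicate 2 (adjusted p 0.0518 to 0.0697). The call was lost too without the pair numbered 2 (adjusted p 0.162).

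Clock genes and genes of neuronal activity, to which Bhlhe40 is tied, were read next. Of 13 clock genes 1 rose and 3 fell, beside 26% and 27.9% of all tested genes, 9 were without a call, and the median log2 fold change was 0.01. Nr1d2, a clock repressor, rose by 0.77 (SE 0.10, adjusted p 0.000382). Clock stood at -0.35 (SE 0.10, adjusted p 0.02) and Per3 at -0.49 (SE 0.17, adjusted p 0.0348). Without IP replicate 1 no clock gene was called lower, and without Input replicate 1 or Input replicate 3 only 1 was (13 tested each). Of 8 activity genes 1 rose, 3 fell and 4 did not pass, beside the same 26% higher and 27.9% lower of all tested genes. Fos rose by 0.78 (SE 0.15, adjusted p 0.00251), and Arc and Npas4 fell by 1.19 (SE 0.18) and 1.34 (SE 0.39). Without IP replicate 2 or Input replicate 3, 1 activity gene was called lower, and 5 without IP replicate 1. Npas4 lost its call when replicate 2 or 3 of IP or replicate 3 of Input was left out (adjusted p 0.0503 to 0.0696). The call was lost too without IP replicate 2 together with Input replicate 2 or 3 (highest adjusted p 0.103).

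The genes whose log2 CPM over the 6 libraries followed a factor most closely were sought among named genes whose log2 CPM averaged 3 or more. For Nhlh2 these were Ccdc90b and Rnf19b (Pearson r 0.999 and 0.998), for Tcf12 Cnot6 and Dnm2 (0.999 for both) and for Tcf4 Slc4a7 and Zfp862-ps (0.999 and 0.998). Neurod6 was most like Zfp862-ps and Tcf4 (0.995 and 0.994), and Neurod2 like Kank2 and Tgfbrap1 (0.995 and 0.994). For Nhlh2, 1128 of 9568 genes had an r over 0.95, for Tcf12 937 and for Tcf4 535, since a difference between the groups alone gives a high r over 6 libraries. Factors with no call had fewer such genes: 35 for Nhlh1 (Zdhhc18 and Ttc39a first, 0.988 and 0.985), 10 for Bhlhe40 (Dennd2a and Bcar1, 0.99 and 0.976), 4 for Neurod1 (Pdcd4 and Zfp58, 0.991 and 0.969) and 2 for Bhlhe22 (Zfp930 and Eftud2, 0.961 and 0.953). These r values describe 6 libraries that share depth and scaling, and carry no test.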

How the data were processed

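Polysomal RNA and Input RNA of the midbrain were sequenced in 3 libraries each. For each library the authors deposited unnormalized counts of reads by gene symbol. The submitters' processing notes name STAR 2.0.0e, HTSeq and the build mm10. No source used here gives the annotation, strand setting or counting mode, so reads of a gene and of one overlapping it on the other strand cannot be told apart. The 5 summary lines and an entry for unknown genes (1 count in all) were left out. Reads with several alignments, 44.2% ± 0.402 of the total in IP against 32.5% ± 0.596 for Input, and ambiguous reads, 1.63% ± 0.046 against 9.35% ± 1.48 (SD, 3 libraries each), were not in gene counts.

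Groups and replicate numbers came from the titles. The members, lists, tests and alternatives were chosen with earlier results of these data known. Genes with low counts were removed by filterByExpr (minimum count 10, minimum total 15), which kept 17197. Counts were scaled by TMM and fitted with edgeR 4.0.16 in R 4.3.3 (robust quasi-likelihood fit, group as the only term, two-sided). Adjusted p-values are Benjamini-Hochberg values over all tested genes at a threshold of 0.05, and glmTreat tested for changes over 2-fold. SE is the log2 fold change divided by the square root of F, and 95% intervals use it with the fit's degrees of freedom. Differences within pairs are of log2 CPM with a prior count of 2. On simulated counts of IP against Input for 17197 genes, 200 of them changed, 50% of genes changed 2-fold and 82% of those changed 4-fold were recovered, with 8.33% of calls false. In the data 53.9% of genes were called. Recovery and the share of false calls depend on how many genes change, so the simulated figures may not hold for the data.

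Same-numbered libraries carry the same lane code (6, 3 and 1), so the number marks a shared lane. Within such pairs, deviations from the group mean had correlations of 0.155, 0.0744 and 0.0506, and each IP library correlated best with the Input library of its number. Replicates correlated at 0.971 to 0.986 across genes, with a chi-square per degree of freedom of 27.5 to 82.5, so none was a copy.

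Named genes were the 9 factors, every called gene of the proneural, Id, Hes and Hey and corepressor lists, and of the other lists the 2 most abundant called in the commoner direction and 1 in the other. Cbln3, Gabra6, Fat2, Etv1, Zic1, Calb2, Slc17a7, Id2, Bhlhe41 and Hes3, and genes at 0, were named after their values were seen. Of the called proneural genes, 1 is not reported here by name. Alternatives were RLE, upper-quartile and unscaled totals, other count filters, DESeq2 1.42.0, limma-voom (limma 3.58.1), a replicate block, a threshold of 0.01 and leaving out libraries. Exon lengths, overlaps and positions are from GENCODE M21.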

Additional observations from a re-analysis of the deposited data

How the results depend on the processing

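Under 17 alternatives (16 for Nhlh1, which a minimum count of 50 removed), Nhlh2 kept its direction and its call, with log2 fold changes from 2.07 to 2.30, and so did Neurod2 (-2.84 to -1.60), Neurod6 (-3.98 to -2.68), Tcf4 (-1.82 to -1.36) and Tcf12 (-1.54 to -1.30). Bhlhe22 changed sign, to -0.14, without IP replicate 2 and Input replicate 3 together, and Bhlhe40 passed without IP replicate 2. Changes over 2-fold numbered 2601, 1555 at a threshold of 0.01 and 1473 without IP replicate 2 and Input replicate 2 together, an alternative chosen after seeing the data, with fewer samples. With the replicate block, 9690 genes were called in place of 9261, 1 factor was higher and 4 lower, and no call among the 9 factors changed. Id2 passed with the block, with RLE, upper-quartile or unscaled totals, by DESeq2 and limma-voom, without IP replicate 2, and without IP replicate 2 together with Input replicate 2 or 3. Nhlh1 had the fewest counts of the 9 factors, 27 to 78 a library, and an SE of 0.41. Neurod6 and Neurod2, with more counts, had larger SEs of 0.48 and 0.43. Genes under the count filter were not tested in the main fit.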
